A study of Mus musculus with 14 samples.

Results

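Dimethylation of histone H3 at lysine 4 (H3K4me2) was called in both control libraries and in neither treated library at 1166 places on the mouse autosomes. These lost peaks were 2.20% of the 52954 DMSO peaks that met the same limits on width and were also called in EtOH. The DMSO list held 105136 H3K4me2 peaks in all. The lost peaks had a median width of 375 bp, and 76.7% of them lay within 5 kb of H3K4me2 that was still called after both treatments. A WDR5 peak seldom covered them or lay within 1 kb of them. WDR5 peaks 2 to 10 kb away were more frequent than around equally narrow kept peaks, a trait shared with peaks lost under MM-401 only. Lost peaks also tended to lie near each other, most of all within 10 kb.

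The maps came from chromatin immunoprecipitation followed by sequencing (ChIP-seq) in mouse bone marrow cells transduced with MLL-AF9, a leukemia fusion protein that all groups carried. MLL-AF9 cells, called MAF9 cells here, received the inhibitor MM-401 at 20 µM or its solvent DMSO for 2 days. Cells with MLL1 flox/flox alleles and ER-Cre+/-, also transduced with MLL-AF9 and called MLL1 flox cells here, received 4OHT (4-hydroxytamoxifen) at 400 nM or its solvent EtOH for 2 days. Of 14 samples, 4 were inputs that were not analysed here, and the other 10 were ChIP libraries, with H3K4me2 and WDR5 in all 4 conditions and MLL1 in DMSO and MM-401. Each condition had 1 library per antibody, so no replicate error exists and no test between conditions was run. The fusion was introduced by transduction and is not at the endogenous locus. MLL1 was not mapped in the MLL1 flox cells, so its deletion could not be checked in these data, and cells that escaped deletion cannot be told apart from deleted ones. DMSO and EtOH also come from different cells, so a peak common to both is a peak shared by the lines as well as by the solvents.

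H3K4me2 marks promoters and enhancers, where it often forms a block of several neighbouring nucleosomes. MLL1 is a methyltransferase that acts on H3K4, and WDR5 is a shared subunit of the complexes built by MLL1 and its relatives, which needs to contact MLL1 for full activity of the complex. MM-401 binds WDR5 in place of MLL1 and so uncouples the pair. 4OHT drives the Cre recombinase fused to an estrogen receptor into the nucleus, where it removes the floxed part of the gene.

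A lost peak was an autosomal DMSO peak of 300 to under 5000 bp that shared at least 1 bp with an EtOH peak and none with an MM-401 or 4OHT peak. The peaks were thus chosen by the calls in all 4 H3K4me2 lists, and the counts that follow from the rule are a description. The limits on chromosome and width left 102640 and then 60547 DMSO peaks, of which 52954 were called in EtOH. Under MM-401, 2851 of these eligible peaks were not called (5.38%), and under 4OHT, 3307 were not called (6.25%). The eligible peaks fell into 1166 lost under both treatments, 1685 lost under MM-401 only, 2141 lost under 4OHT only and 47962 kept under both. A peak that is not called can still hold signal, because the lists give positions without heights, and the read depth behind them is unknown.

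The DMSO peaks can also be sorted by which other list called them. Among the 60547 peaks, the pattern of the lost peaks, called in EtOH alone, was seen at 1.93%. Called under MM-401 alone were 3275 peaks, or 5.41%, which pairs the 2 libraries of MAF9 cells. Called under 4OHT alone were 483 peaks, or 0.798%. A further 2280 peaks were called in DMSO and nowhere else. The pairing of the solvents was thus met less often than the pairing of the MAF9 libraries and more often than the pairing of DMSO with 4OHT. Turned around, the rule found 285 MM-401 peaks called under 4OHT and in neither control, or 0.599% of 47542. Started from 4OHT peaks it found 266 of 45868, or 0.580%. The MM-401 and 4OHT H3K4me2 lists were shorter, with 92025 and 91305 peaks, than the DMSO and EtOH lists, with 105136 and 100898. The turned rule was not run on lists of equal length, so the part of list length in these shares was not tested.

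Several peaks sat close to a limit of the rule. There were 209 lost peaks of exactly 300 bp, and 272 peaks of 275 bp met the rest of the rule. No peak of 5000 bp or more did so. For 81 lost peaks a treated peak began at the adjoining base. Of all lost peaks, 63 had 25 bp covered in EtOH, which is 1 step of the caller's grid. On the other side of the limit, 82 peaks were absent from 1 treated list and touched by 25 bp in the other, and 47 peaks absent from the other 3 lists missed an EtOH peak by 1 bp. The edge of the group is therefore made of peaks that differ by a single grid step.

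The share of peaks lost differed with width. The lost peaks had a lower quartile of 325 bp, a median of 375 bp and an upper quartile of 500 bp, and the widest measured 2175 bp. Kept peaks had a median of 1225 bp. Peaks lost under MM-401 only and under 4OHT only lay between, at 425 and 500 bp. Among eligible peaks of 300 to under 500 bp, 852 of 8644 were lost under both treatments, or 9.86% (95% Wilson interval 9.25 to 10.5). The share was 1.96% at 500 to under 1000 bp, with 277 of 14118, and 0.123% at 1000 to under 5000 bp, with 37 of 30192. Of 6886 peaks of 2500 bp or more, none was lost. The narrowest class held 73.1% of all lost peaks, and together the lost peaks covered 0.528 Mb.

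In the narrowest class, 22.6% of peaks were absent under MM-401 and 21.5% under 4OHT. The product of these shares is 4.87%, against the 9.86% that were absent under both. At 500 to under 1000 bp the product was 0.473% against 1.96%. Absence in one treated list and absence in the other thus fell on the same peaks more often than the separate shares multiply to, at both widths. The same calls chose the lost peaks, so this is a description. Absence was shared with the control EtOH list too, as 2280 of the 60547 DMSO peaks were called in none of the other lists. Whether peaks near the caller's threshold drop out of any pair of lists together was not tested.

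**Figure D1:**
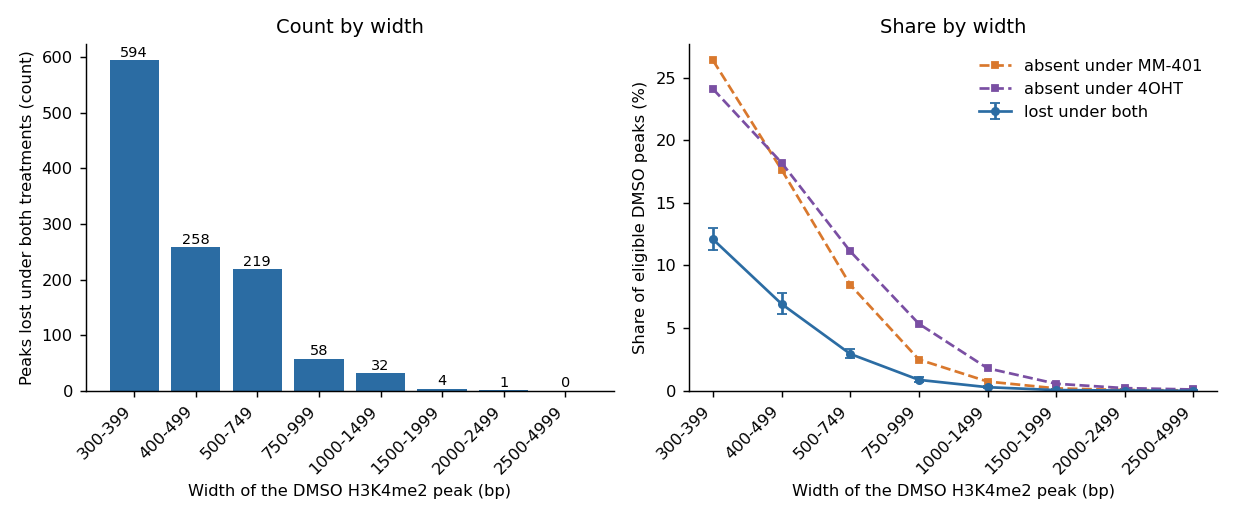
Left, the number of H3K4me2 peaks lost under both treatments in each class of width; right, the share of eligible DMSO peaks absent under MM-401, absent under 4OHT and lost under both, with 95% Wilson intervals for the last. Counts run from 594 at 300 to under 400 bp to 0 at 2500 to under 5000 bp, and all 3 shares drop with width.

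The EtOH peak behind a lost peak was small. The median lost peak had 40.0% of its bases covered in EtOH, against 97.0% of a kept peak. At least 50% was covered in 39.7% of lost peaks, and 8.23% were covered in full. Part of this gap goes with width, but at 300 to under 500 bp the medians still stood at 44.1% and 92.9%. The widest EtOH peak overlapping a lost peak had a median width of 250 bp, and for 675 lost peaks it was under 300 bp.

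An EtOH peak can reach past the lost DMSO peak and touch treated H3K4me2 further along. This happened at 283 lost peaks, or 24.3%. At the other 883, or 75.7% (73.2 to 78.1), every EtOH peak involved was itself absent from both treated lists. Where the EtOH peak was wholly absent, the nearest treated peak lay at a median of 676 bp, and 29.8% of the lost peaks were isolated in the sense given next. Where it was still called in part, the nearest treated peak lay at a median of 76 bp, and 9 of 283 were isolated. The split fixes part of this difference, since an EtOH peak that reaches a treated peak places that peak nearby. An EtOH peak that spanned several DMSO peaks lay behind 302 lost peaks, or 25.9%, and 24 lost peaks shared an EtOH peak with another lost peak.

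Remaining H3K4me2 means an MM-401 peak that shares at least 1 bp with a 4OHT peak. The nearest such peak lay at a median of 1326 bp from a lost peak, and 512 lost peaks had it within 1 kb. Taken alone, the nearest MM-401 peak lay at a median of 751 bp and the nearest 4OHT peak at 563.5 bp. The nearest other DMSO peak was closer, at 201 bp, and lay within 1 kb of 896 lost peaks. The nearest peak of either treated list lay at a median of 326 bp, with 668 lost peaks, or 57.3%, having one within 500 bp. Most lost peaks were thus part of a crowded stretch in DMSO and had H3K4me2 of at least 1 treated library close by. The crowding in DMSO was not particular to them. At 300 to under 500 bp, another DMSO peak lay within 1 kb of 78.6% of lost peaks and 79.7% of kept peaks.

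A lost peak was called isolated, edge or gap when remaining H3K4me2 lay within 5 kb on no side, on 1 side or on both sides. Edge was the most frequent, with 628 lost peaks or 53.9% (51.0 to 56.7). Isolated peaks numbered 272, or 23.3% (21.0 to 25.8), and gap peaks 266, or 22.8% (20.5 to 25.3). An isolated peak can still have treated H3K4me2 nearby that was not called at the same place in both treated lists. A peak of either treated list lay within 5 kb of 1016 lost peaks, or 87.1%, and remaining H3K4me2 of 894, or 76.7%. With a reach of 2 kb in place of 5 kb, isolated peaks numbered 495, edge peaks 558 or 47.9%, and gap peaks 113. With a reach of 10 kb edge peaks were 48.1%. In a gap, the remaining peaks on either side stood a median of 3487.5 bp apart, and at most 9750 bp. Few lost peaks were truly remote: 26 lay more than 20 kb from any treated peak and 3 lay more than 50 kb away.

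**Figure D2:**
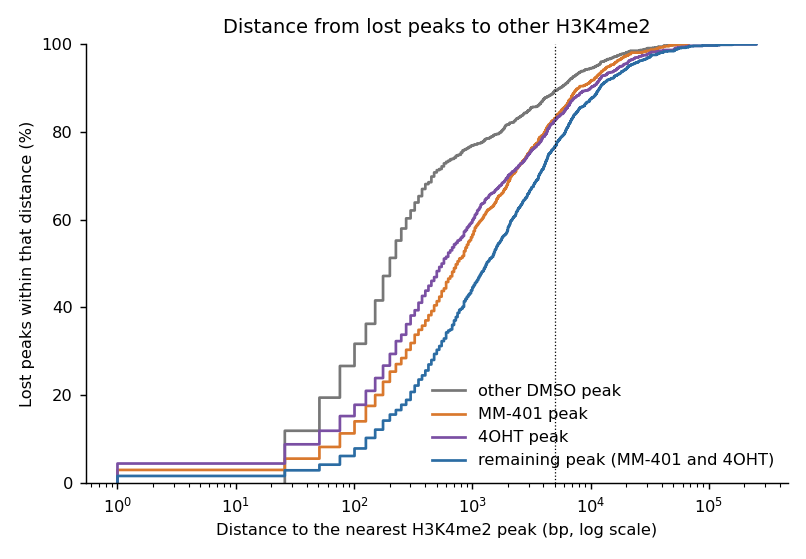
Cumulative share of the 1166 lost peaks by distance to the nearest H3K4me2 peak of each kind, on a log scale; the dotted line marks 5 kb. At 1 kb, 896 lost peaks had another DMSO peak, 692 a 4OHT peak, 653 an MM-401 peak and 512 a remaining peak.

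To compare the setting with that of kept peaks, the nearest other DMSO peak that was kept under both treatments was found for each peak of 300 to under 500 bp. These distances use the lists that chose the peaks and are a description. The kept neighbour lay at a median of 763.5 bp from a lost peak and 201 bp from a kept peak. A kept neighbour within 5 kb on 1 side only was seen for 53.3% of lost peaks (49.9 to 56.6) and 45.6% of kept peaks (44.4 to 46.9). One on both sides was seen for 25% of lost peaks and 36.2% of kept peaks. None within 5 kb was seen for 21.7% of lost peaks (19.1 to 24.6), against 18.2% of kept peaks (17.2 to 19.2). Narrow peaks lost under 4OHT only had none in 38.5% of cases, and those lost under MM-401 only in 13.4%. The widest difference between lost and kept peaks was in the share with kept neighbours on both sides.

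The block beside a lost peak was wide. Where a kept neighbour lay within 5 kb, its median width was 1850 bp beside the narrow lost peaks and 750 bp beside the narrow kept peaks. Neighbours of narrow peaks lost under MM-401 only and under 4OHT only measured 1375 and 1025 bp. A neighbour of 5 kb or wider stood beside 9.15% of the lost peaks (7.19 to 11.6) and 2.69% of the kept peaks (2.26 to 3.20). The neighbour overlapped a DMSO WDR5 peak in 18.3% and 18.9% of cases, a difference smaller than the counting intervals. It overlapped a DMSO MLL1 peak in 10.8% (8.66 to 13.4) and 5.87% (5.23 to 6.59). The part that the greater width of these neighbours plays in the MLL1 shares was not tested.

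The widest lost peaks show these positions. The widest, chr1:155326251-155328425 in mm9, spanned 2175 bp next to a DMSO block, and EtOH called 100 bp of it. Under 4OHT the nearest H3K4me2 began 701 bp away and under MM-401 1601 bp away, and an MM-401 MLL1 peak lay inside it. The next widest, chr16:8780826-8782600, was a gap peak of 1775 bp 51 bp from MM-401 H3K4me2 and 276 bp from 4OHT H3K4me2. Its DMSO WDR5 and DMSO MLL1 peaks lay 2201 and 2625 bp away and under the treated block. At both, the treated block stopped short of the lost peak, and the EtOH block did so too or reached only its edge, with 175 bp of the second peak called in EtOH. On chromosome 2, chr2:155989351-155991025 with 1675 bp and chr2:155986551-155988050 with 1500 bp were close neighbours. An MM-401 peak lay 376 and 326 bp from them and the nearest 4OHT peak 5901 and 3101 bp. Between these in width, chr11:77518551-77520150 with 1600 bp was called isolated by a small margin, with remaining H3K4me2 at 5226 bp. Even so, an MM-401 peak lay 151 bp from it, and the nearest 4OHT peak lay at 5026 bp.

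The most remote lost peaks were of ordinary width. The farthest, chr17:13337526-13337925, measured 400 bp and lay 67001 bp from the nearest treated peak. It was remote in DMSO too, with the next DMSO peak at 67076 bp, yet a 4OHT WDR5 peak lay 2301 bp away. The next were chr8:42383551-42384100 at 52951 bp and chr1:21763951-21764550 at 52151 bp. In contrast to the farthest peak, these 2 had another DMSO peak within 1 kb, at 851 and 576 bp. Then came chr5:20321701-20322150 at 48451 bp and chr9:123678701-123679100 at 46251 bp from treated H3K4me2. All 5 had an EtOH peak that was itself absent from both treated lists.

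**Figure D3:**
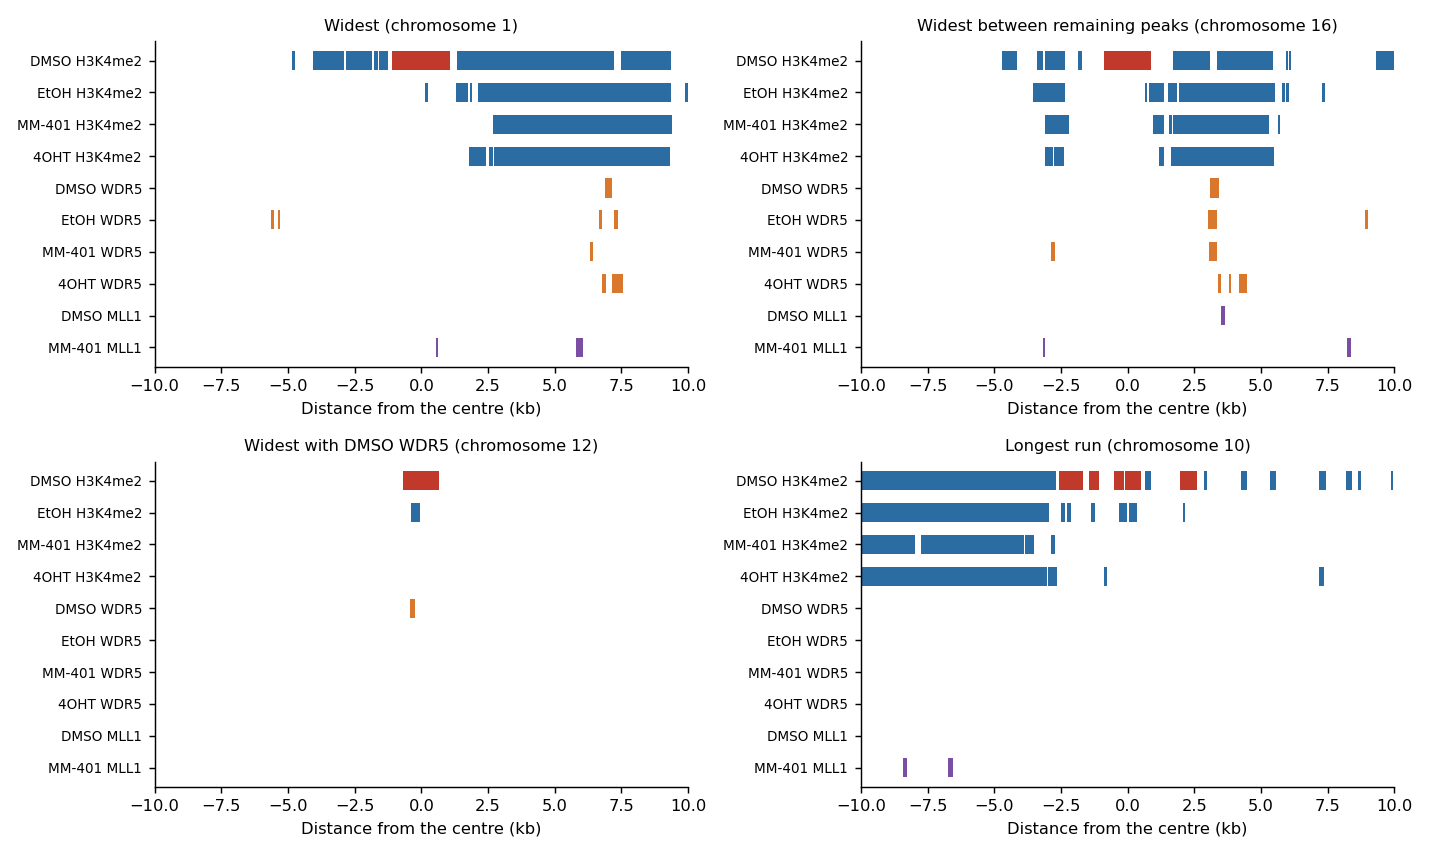
Peak calls of the 10 lists within 10 kb of the centre of 4 places, with distance from the centre in kb and lost peaks in red. At the widest lost peak and the widest gap peak the wide EtOH, MM-401 and 4OHT blocks stopped at or short of the lost peak's edge, the widest lost peak with DMSO WDR5 stood alone, and 5 lost peaks followed a block in the longest run.

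WDR5 was not used by the rule. A DMSO WDR5 peak overlapped 9 of the 1166 lost peaks, or 0.772% (0.407 to 1.46), and an EtOH WDR5 peak overlapped 23. Within 5 kb the counts were 274 for DMSO, or 23.5%, and 459 for EtOH, or 39.4%. The EtOH list holds more WDR5 peaks, 34587 against 14481, which moves with this difference. The median distance was 13576 bp to DMSO WDR5 and 7201 bp to EtOH WDR5. Direct WDR5 calls on the lost peaks were thus rare in both controls, and WDR5 calls a few kb off were not.

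Because overlap depends on width, lost and kept peaks were compared at 300 to under 500 bp, with 852 and 5681 peaks. DMSO WDR5 overlapped 0.587% of lost peaks (5 peaks) and 6.11% of kept peaks. At up to 1 kb without overlap, the nearest WDR5 peak was found for 1.53% of lost and 9.10% of kept peaks. The order turned with distance. Between 1 and 2 kb it was found for 5.63% and 5.91%. From 2 to 5 kb it was found for 16.8% of lost peaks (14.4 to 19.4) and 11.5% of kept peaks (10.7 to 12.4), and from 5 to 10 kb for 18.0% and 11.1%. Counted from the peak outwards, WDR5 within 5 kb was less frequent around lost peaks, at 24.5% (21.8 to 27.5) against 32.7% (31.5 to 33.9). Within 10 kb it was found for 42.5% (39.2 to 45.8) and 43.8% (42.5 to 45.1), and within 20 kb for 60.1% and 57.3%. For DMSO WDR5 the lower share close to lost peaks was thus made up by 10 kb, with no surplus in the running total beyond the intervals there. EtOH WDR5 did show a surplus within 20 kb, at 79.5% of lost peaks (76.6 to 82.0) and 73.3% of kept peaks (72.1 to 74.4).

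**Figure D4:**
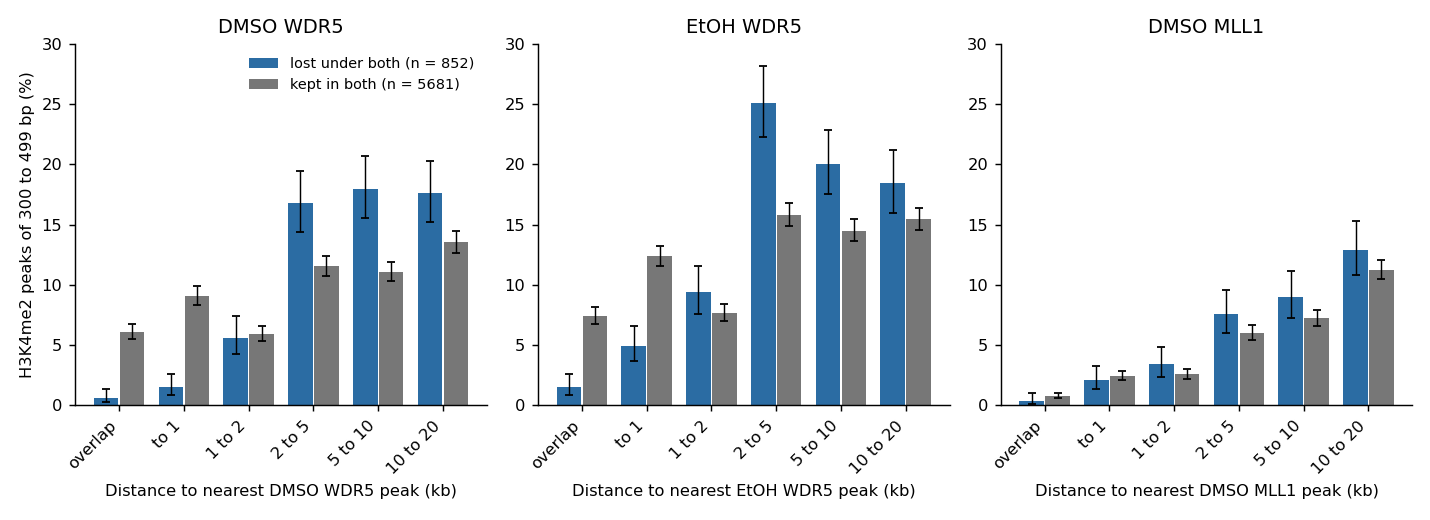
Share of H3K4me2 peaks of 300 to under 500 bp whose nearest DMSO WDR5, EtOH WDR5 or DMSO MLL1 peak lies in each band of distance (kb), for 852 peaks lost under both treatments and 5681 kept peaks, with 95% Wilson intervals. For both WDR5 lists the lost peaks are lower up to 1 kb and higher from 2 to 10 kb, and for MLL1 the intervals overlap in each of these bands.

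These bands use the nearest WDR5 peak, so a kept peak with WDR5 close by cannot enter a farther band. Counting any DMSO WDR5 peak at 2 to 10 kb, nearest or not, gave 36.6% of lost peaks (33.5 to 39.9) and 28.5% of kept peaks (27.3 to 29.7). The difference was smaller than with the nearest peak alone, at 34.7% and 22.6%, and the intervals did not overlap. Narrow peaks lost under MM-401 only were like the lost peaks in this, with 39.6% (36.8 to 42.5), and those lost under 4OHT only were not, with 26.4% (23.8 to 29.2). On or within 1 kb, DMSO WDR5 was found for 4.81% and 5.05% of these groups, against 2.11% of peaks lost under both (1.34 to 3.31) and 15.2% of kept peaks. The higher share at 2 to 10 kb is therefore not particular to loss under both treatments.

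The weaker EtOH cover of lost peaks moved with this pattern, so the nearest-peak shares were split by cover. Among narrow peaks with under 50% EtOH cover, DMSO WDR5 lay on or within 1 kb of 2.17% of 461 lost peaks (1.18 to 3.95) and 7.01% of 1013 kept peaks (5.59 to 8.75). From 2 to 10 kb it was found for 32.3% of the lost peaks (28.2 to 36.7) and 19.7% of the kept peaks (17.4 to 22.3). Among those with 50% cover or more, they were 2.05% of 391 lost peaks and 17.0% of 4668 kept peaks up to 1 kb. From 2 to 10 kb they were 37.6% (32.9 to 42.5) and 23.3% (22.1 to 24.5). For the 603 narrow lost peaks whose EtOH peak was wholly absent after treatment, the shares were 1.49% up to 1 kb and 33.0% at 2 to 10 kb. In each of these groups the share was lower than among kept peaks up to 1 kb and higher from 2 to 10 kb. With the EtOH WDR5 list, the excess at 2 to 10 kb was as clear, at 44.3% (39.8 to 48.8) against 32.2% (29.4 to 35.1) under 50% cover. The shortage up to 1 kb was smaller there, at 6.51% (4.60 to 9.14) and 9.28% (7.64 to 11.2), with intervals that overlap.

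Among lost peaks, the share at 2 to 10 kb differed with distance to treated H3K4me2. Over all narrow peaks it was 34.7% for lost peaks (31.6 to 38) and 22.6% for kept peaks (21.6 to 23.7), with the nearest DMSO WDR5 peak in that band. The 330 narrow lost peaks more than 500 bp from any treated peak had 32.1% (27.3 to 37.3). The 177 more than 2 kb from any treated peak had 22.0% (16.6 to 28.7). Every kept peak overlaps a treated peak by the rule, so no kept peaks at such distances exist for comparison. Up to 1 kb, overlap included, these groups of lost peaks had 1.21% and 1.13%, against 15.2% of all narrow kept peaks. The low share of close WDR5 was thus present in both groups, and the share farther out was lower in the group more than 2 kb from treated H3K4me2. The part that the choice by distance plays in this was not tested.

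WDR5 followed the position of a lost peak relative to remaining H3K4me2. DMSO WDR5 lay within 5 kb of 7 of 272 isolated lost peaks, or 2.57% (1.25 to 5.22), of 26.6% of edge peaks (23.3 to 30.2) and of 37.6% of gap peaks (32.0 to 43.6). For EtOH WDR5 the shares were 11.8%, 46.5% and 50.8%. WDR5 was not split by position for the other classes of eligible peaks, so this cannot be read as a trait of lost peaks. Of the 9 lost peaks that overlapped a DMSO WDR5 peak, 5 were isolated, whereas of the 23 that overlapped an EtOH WDR5 peak, 2 were isolated, 15 were edge and 6 were gap peaks.

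The 9 lost peaks with DMSO WDR5 lay on 7 chromosomes. The widest was chr12:70731826-70733175 with 1350 bp, where the nearest treated H3K4me2 was 13876 bp away and the nearest WDR5 peak of another list was 9676 bp away. At chr1:173990276-173991125, with 850 bp, an MM-401 peak lay 76 bp away and 4OHT H3K4me2 10976 bp away. The peak chr15:100266126-100266725, with 600 bp, showed the reverse, with 4OHT H3K4me2 at 76 bp and MM-401 H3K4me2 at 6501 bp. The remote peak chr1:21763951-21764550 named above was also among the 9. WDR5 was found again under MM-401 at 1 of the 9, chr14:21330301-21330600. A 4OHT WDR5 peak overlapped there too, but in its own control, EtOH, the nearest WDR5 peak lay 30951 bp away. The rest were chr1:183091101-183091500, chr5:64265651-64266000, chr7:52280901-52281275 and chr9:113933001-113933350, of 350 to 400 bp each. At all 4, a further DMSO H3K4me2 peak lay within 226 bp.

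The treatments did not leave the lost peaks with fewer WDR5 calls nearby. An MM-401 WDR5 peak overlapped 10 lost peaks and lay within 5 kb of 338, against 9 and 274 in DMSO. A 4OHT WDR5 peak overlapped 27 and lay within 5 kb of 522, against 23 and 459 in EtOH. The treated WDR5 lists are longer as well, with 17273 and 41054 peaks. At 300 to under 500 bp, WDR5 lay within 5 kb of 24.5% of lost peaks in DMSO and 31.8% under MM-401. For kept peaks these shares were 32.7% and 37.2%. In EtOH and 4OHT they were 41.0% and 46.8% of lost peaks, and 43.4% and 48.0% of kept peaks. The higher shares after treatment were thus not particular to the lost peaks. Of the 274 lost peaks with DMSO WDR5 within 5 kb, 182 had MM-401 WDR5 within 5 kb, or 66.4% (60.6 to 71.8). Of the 459 with EtOH WDR5, 298 had it under 4OHT, or 64.9% (60.5 to 69.1). At the overlapping sites themselves little was shared, with 1 lost peak in both MAF9 lists and 5 in both MLL1 flox lists. Sharing between control and treated WDR5 lists was not counted for kept peaks. These shares therefore cannot be read as a trait of the lost peaks.

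MLL1 calls were sparser. The DMSO MLL1 list overlapped 4 lost peaks, or 0.343%, and lay within 5 kb of 140, or 12.0% (10.3 to 14.0), with a median distance of 36510.5 bp. At 300 to under 500 bp, overlap was 0.352% of lost and 0.792% of kept peaks, and within 5 kb the shares were 13.5% (11.4 to 16.0) and 11.9% (11 to 12.7). Neither difference exceeded the counting intervals. At 2 to 10 kb, counting any DMSO MLL1 peak, the shares were 18.3% of lost peaks (15.9 to 21.0) and 14.7% of kept peaks (13.8 to 15.6), so MLL1 was more frequent there as WDR5 was. This too was not particular to loss under both treatments. Narrow peaks lost under MM-401 only had 19.0% (16.8 to 21.4), and those lost under 4OHT only had 12.3% (10.4 to 14.4). Like WDR5, MLL1 within 5 kb was least frequent at isolated peaks, with 4.78%, and more frequent at edge peaks, with 12.3%, and gap peaks, with 18.8%. This split too was made for lost peaks only. The MM-401 MLL1 list overlapped 15 lost peaks and lay within 5 kb of 381. It was made with another caller than the DMSO list, so the difference between these counts is no measure of the treatment.

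The 4 lost peaks with DMSO MLL1 were narrow, at 300 to 525 bp. At chr8:111253751-111254125, an isolated peak, 4OHT H3K4me2 lay at 326 bp and MM-401 H3K4me2 at 651 bp, and these treated peaks did not coincide. At chr10:95478801-95479100, EtOH covered 25 bp of 300 bp, an MM-401 H3K4me2 peak lay at 451 bp and 4OHT H3K4me2 at 58551 bp. Here MM-401 and 4OHT WDR5 peaks lay at 76 and 151 bp, whereas DMSO WDR5 was 74951 bp away. The peak chr17:79374001-79374525 was remote from other H3K4me2, with the nearest treated peak at 7001 bp and the next DMSO peak at 7126 bp. The last, chr19:6359801-6360175, was an edge peak whose EtOH peak of 875 bp was still called under 4OHT. None of the lost peaks overlapped both DMSO WDR5 and DMSO MLL1.

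Most H3K4me2 peaks of this width carried no mapped subunit of the complex, kept or lost. No WDR5 or MLL1 peak of any of the 6 lists overlapped 1086 of the lost peaks, or 93.1% (91.5 to 94.5). WDR5 in at least 1 list overlapped 61 and MLL1 in at least 1 list overlapped 19. At 5 kb, 307 lost peaks still had none, or 26.3% (23.9 to 28.9), and at 20 kb 35 had none. At 300 to under 500 bp, none overlapped 93.9% of lost peaks (92.1 to 95.3) and 79.5% of kept peaks (78.4 to 80.5). None lay within 5 kb of 25.2% (22.4 to 28.3) and 21.9% (20.8 to 23.0), and none within 20 kb of 2.93% and 4.12%. Lost and kept peaks of like width thus differed in direct overlap, and their intervals met at 5 and 20 kb. None overlapped 92.2% of narrow peaks lost under MM-401 only (90.5 to 93.6) and 90.6% of those lost under 4OHT only (88.6 to 92.2). The low overlap was therefore not particular to loss under both treatments.

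Lost peaks gathered along the chromosomes. Another lost peak lay within 10 kb of 209 of them, or 17.9%, and within 50 kb of 346, or 29.7% (27.1 to 32.4). A lost peak lay within 50 kb of 14.2% of kept peaks (13.9 to 14.5), 15.0% of peaks lost under 4OHT only (13.5 to 16.6) and 23.0% of peaks lost under MM-401 only (21.0 to 25). At 300 to under 500 bp the shares were 27.3% for lost peaks (24.5 to 30.4) and 13.1% for kept peaks (12.3 to 14.0). Lost peaks thus had lost neighbours more often than kept peaks of the same width had.

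The reach of this gathering was read from pairs of eligible peaks, each pair counted from both ends. Around lost peaks of 300 to under 500 bp, neighbours of that width were themselves lost in 26.7% of pairs up to 1 kb apart (32 of 120) and 22.4% at 5 to 10 kb. The share was 14.5% at 10 to 25 kb, 11.3% at 50 to 100 kb and 8.65% at 100 to 250 kb. The share over all eligible peaks of this width was 9.86%. Around kept peaks it was 3.59% up to 1 kb and 9.90% at 10 to 25 kb. The excess of lost neighbours was thus largest within 10 kb and was not seen beyond 100 kb.

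**Figure D5:**
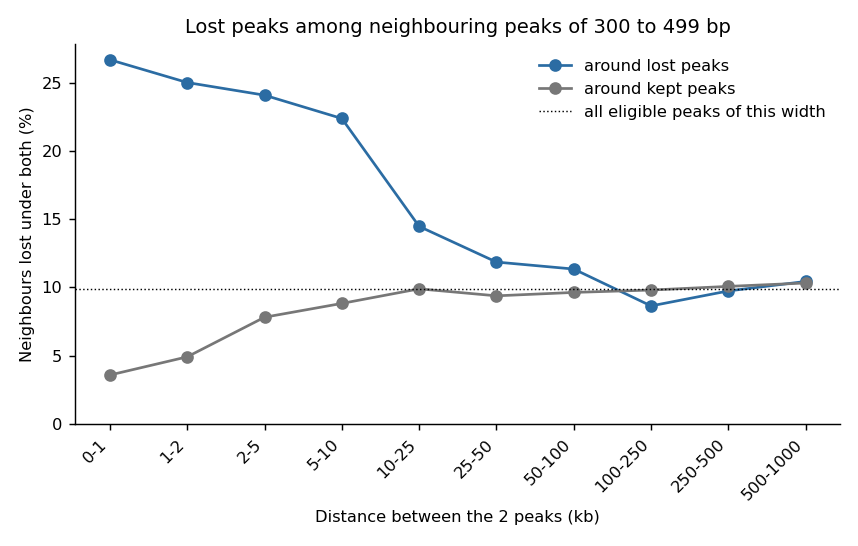
Share of eligible neighbours of 300 to under 500 bp that were lost under both treatments, by distance between the 2 peaks (kb), around lost peaks and around kept peaks of that width; the dotted line is the share over all eligible peaks of this width, 9.86%. The share around lost peaks starts at 26.7% and meets the line beyond 100 kb.

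Some lost peaks followed each other with no other eligible peak between them. Such runs of 2 or more numbered 77 and held 173 lost peaks, and 993 lost peaks stood singly. The longest run held 5 in 5175 bp at chr10:110611901-110617075. It began where a wide block ended, as the maps of peak calls show, and a 4OHT peak lay inside the run between 2 lost peaks. Of 3 runs of 4, those named by rule lay at chr2:68717951-68733900 and chr6:67226851-67230500. The latter spanned 3650 bp with no other DMSO peak between its members, and 3125 bp of it was called in DMSO. The nearest MM-401 and 4OHT peaks lay 201 and 126 bp from it. None of these named runs had DMSO WDR5 within 8 kb, the nearest lying 9026, 12201 and 8701 bp from them. Over all lost peaks the median distance to DMSO WDR5 was 13576 bp, so this is not unusual. A 4OHT WDR5 peak lay within the span of the chromosome 6 run and an MM-401 MLL1 peak within that of the chromosome 2 run.

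On a larger scale, 1303 of 1995 windows of 1 Mb with eligible peaks held no lost peak, and 106 held 3 or more, with 401 lost peaks in all. The fullest lay at 78 to 79 Mb of chromosome 12, with 9 lost of 76 eligible peaks. Next came 155 to 156 Mb of chromosome 2, with 8 of 73, which holds 2 of the 5 widest lost peaks. At 110 to 111 Mb of chromosome 10, 7 of 55 were lost, including the longest run, and at 73 to 74 Mb of chromosome 14, 7 of 101. The start of this last window cut through a denser group. When lost peaks up to 50 kb apart were joined, the largest group lay there, at chr14:72987376-73073300, with 9 lost of 19 eligible peaks. Between whole chromosomes the share varied little, from 1.59% on chromosome 15, with 36 of 2268, to 2.57% on chromosome 10. Chromosome 15 was the only one of 19 whose interval left out the overall share. Among narrow peaks the only such chromosome was chromosome 1, at 13.3% (10.4 to 16.7).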

How the data were processed

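The authors deposited 1 peak list per ChIP library as chromosome, start and end, with no score, height or read count, so depth is unknown. Bowtie and the mouse build mm9 are named in the submitters' processing notes. The WDR5, H3K4me2 and MM-401 MLL1 lists carry HPeak names and lie on a 25 bp grid. They were read as 1-based, and the DMSO MLL1 list, called with MACS per the study, as 0-based. HPeak's thresholds are not given in the sources used here. Positions are 1-based mm9. No gene annotation of mm9 was used here, so no genes are named.

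Lists were compared in Python 3.11.15 with numpy 2.4.6, and figures drawn with matplotlib 3.10.9. Overlap needed 1 shared bp, and a distance of 1 bp means adjoining bases. The code was tested on simulated lists, where its distances equalled those of bedtools 2.31.1 at 100% of 102640 peaks. Shares carry 95% Wilson intervals, which cover counting error only and treat neighbouring peaks as independent.

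The peaks, lists and rules were chosen with earlier results of these data known. Regions are named by rule: the 5 widest lost peaks, the 5 farthest from treated H3K4me2, all that overlap DMSO WDR5 or DMSO MLL1 (10 or fewer of each), the 3 fullest windows of 1 Mb and the 3 longest runs, ties going to the lower chromosome and start. The widest gap peak in the maps, the fourth window and the joined group on chromosome 14 were chosen after their values were seen. So were the splits by EtOH cover and by distance to treated H3K4me2 and the count of any WDR5 or MLL1 peak at 2 to 10 kb. The alternatives changed the definition of loss, EtOH cover, list length, width, the starting list and the distances.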

Additional observations from a re-analysis of the deposited data

Results flagged for a closer look

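Both results lie outside the limits of width and chromosome that defined the lost peaks. On the sex chromosomes, 23 of 1220 eligible peaks met the rest of the rule, or 1.89% (95% Wilson interval 1.26 to 2.81). Among autosomal DMSO peaks under 300 bp that were called in EtOH, 4141 of 16719 were absent from both treated lists, or 24.8% (24.1 to 25.4). The lower limit of width thus leaves out more peaks with this pattern of calls than the 1166 it keeps.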

How the results depend on the processing

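Each result had 1 value as reported and up to 10 alternatives: the count of 1166 lost peaks, and the shares of them with remaining H3K4me2 (76.7%), DMSO WDR5 (23.5%) and DMSO MLL1 (12.0%) within 5 kb and with another lost peak within 50 kb (29.7%). Cutting all 4 H3K4me2 lists to their 91305 widest peaks left every value within 1.5 times the count or within the interval of the share. Of the 48 values, 9 stayed within these limits and 39 did not. In the order count, remaining H3K4me2, WDR5, MLL1 and other lost peaks, the values were as follows. Counting any treated peak within 500 bp as kept gave 498, 58.8%, 12.9%, 8.03% and 19.7%, and within 2 kb 275, 34.9%, 5.82%, 5.09% and 9.82%, because this removes edge peaks by construction. A minimum EtOH cover of 50% gave 463, 82.3%, 28.5%, 15.6% and 19.7%, and a minimum width of 500 bp 314, 72.3%, 20.7%, 7.96% and 14.3%. Counting peaks under 50% covered as lost gave 4175 peaks, 81.3% with remaining H3K4me2 and 54.9% with another lost peak, and the WDR5 and MLL1 shares stayed within the intervals. Started from EtOH peaks, the count stayed within the limit and the shares were 88.1%, 29.6%, 15.4% and 33.4%. With the EtOH peak wholly absent too, an alternative chosen after seeing the data, the count of 883 stayed within the limit and the shares were 70.2%, 18.7%, 10.1% and 25.8%. For the share with another lost peak, fewer or more lost peaks alter the value by themselves. Other causes were not tested. The higher share of narrow lost peaks with the nearest DMSO WDR5 at 2 to 10 kb, 34.7% against 22.6% of kept peaks, was 36.6% against 28.5% when any peak there counted and 22.0% (nearest) among those more than 2 kb from treated H3K4me2.

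With other distances, remaining H3K4me2 was met by 57.5% within 2 kb and 87.5% within 10 kb, WDR5 by 0.772% on overlap and 7.12% within 2 kb, MLL1 by 0.343% and 4.89%, and another lost peak by 17.9% within 10 kb and 38% within 100 kb. No replicate could be left out and no paired analysis was possible because each condition had 1 library per antibody. The lists hold no depth, so a lost call cannot be told apart from a signal just under the caller's threshold.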
